A study of Mus musculus with 4 samples.

Results

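The genes described here are 38 components of the T cell receptor (TCR) complex and its signalling pathway, taken as a named list from the 25239 gene symbols counted in mouse B16 melanoma tumors. All 38 symbols were found. The list was divided by textbook knowledge of where each gene is expressed: 25 members largely restricted to T cells, some of them also known in NK cells, 6 leukocyte-wide members (Ptprc, Ptpn6, Ptpn22, Lcp2, Fyb and Vav1) and 7 broadly expressed members (Fyn, Malt1, Bcl10, Nfatc1, Nfatc2, Plcg1 and Rasgrp1). The 13 members of the last 2 classes are called shared. A mean of at least 10 reads over the 4 libraries was reached by 37 members, the exception being Txk, and by 13357 genes in all. Of these 37 members, 21 averaged under 10 reads in the 2 libraries without virus and passed only through the other 2, so counts over them describe these libraries and no more.

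B16 is a transplantable melanoma line, and B6 mice carried it subcutaneously in each flank. Treatment started on day 7 and tumors were collected 12 days after ACT. All groups received CTX by intraperitoneal injection the day before ACT; the labels expand neither abbreviation. The CTX library came from mice given PBS into the left tumors and no T cells. The MV (L.i.t.) library came from left tumors into which free MV was injected, in mice given TRP-1 T cells intravenously. The Remote tumor (no MV) library came from right tumors of the same treatment group, into which nothing was injected. The TRP-1MV library came from mice that received TRP-1 T cells loaded with MV by vein. The protocol also has mice that got T cells without virus, not analysed here. All 4 labels give skin as the tissue and a melanoma cell line as the source, while the protocol speaks of tumors. The tables write MV as MYXV, the usual short name of myxoma virus. TRP-1 is the melanocyte protein encoded by Tyrp1, which had 179384 reads in CTX, 190866 in the remote tumor, 26645 in MV (L.i.t.) and 30127 in TRP-1MV. There was 1 library for each group, the labels state n = 2 without saying whether animals were pooled, and no test between groups was possible.

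The T cell receptor binds peptide on MHC molecules but has no signalling tail of its own, and the CD3 chains that travel with it carry the tyrosine motifs that signal. The kinase Lck, held near the receptor by the co-receptors CD4 and CD8, phosphorylates these motifs. The kinase encoded by Zap70 then docks on them and phosphorylates the adaptors encoded by Lat and Lcp2, on which Plcg1, Vav1 and Grap2 products assemble. The branches that follow run through Rasgrp1 to Ras, through Prkcq, Bcl10 and Malt1 to NF-kB, and through calcium to the NFAT factors.

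Total counts were between 12375526 and 21790759 reads. A count of 0 allowed a level of up to 0.151 to 0.222 CPM, where CPM is the read count scaled to library size with TMM factors. The 4 libraries formed 2 pairs, since the structural RNA genes Rn45s and Rpph1 together with Lars2 held 1.64% and 1.62% of the reads in MV (L.i.t.) and TRP-1MV against 0.141% in CTX and 0.164% in the remote tumor. Virus treatment and whatever else differs with this share cannot be told apart here. The 7 melanocyte markers Mlana, Pmel, Dct, Tyr, Mitf, Sox10 and Slc45a2 were present in every library.

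The genes Cd3g, Cd3d and Cd3e lie side by side, and the 250 bases before the start of each are shown because the reads of these 3 genes were high and low in the same libraries. In mm10 (GRCm38), Cd3g covers chromosome 9, 44969572 to 44980431 on the minus strand, Cd3d covers 44981786 to 44987339 on the plus strand and Cd3e covers 44998740 to 45009627 on the minus strand. Cd3g and Cd3d are thus transcribed away from each other, with their RefSeq starts 1354 bases apart, and the RefSeq start of Cd3e lies slightly inside the GENCODE gene given above. The sequences are from RefSeq (GRCm38.p6), and capitals mark matches on either strand to AGGAAG, a core with flanks bound by ETS factors, or to GGGCGG, the GC box.
Cd3g, 44980432 to 44980681, minus strand: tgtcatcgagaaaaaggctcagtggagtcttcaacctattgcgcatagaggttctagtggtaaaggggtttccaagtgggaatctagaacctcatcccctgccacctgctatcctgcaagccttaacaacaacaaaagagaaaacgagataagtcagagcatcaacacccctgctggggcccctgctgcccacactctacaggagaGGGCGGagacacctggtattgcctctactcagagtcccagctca
Cd3d, 44981536 to 44981785, plus strand: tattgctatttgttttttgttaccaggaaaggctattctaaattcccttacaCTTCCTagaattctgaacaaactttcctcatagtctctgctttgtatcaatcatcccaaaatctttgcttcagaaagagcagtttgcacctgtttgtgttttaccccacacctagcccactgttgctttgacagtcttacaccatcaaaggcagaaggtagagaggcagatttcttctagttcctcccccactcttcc
Cd3e, 45009612 to 45009861, minus strand: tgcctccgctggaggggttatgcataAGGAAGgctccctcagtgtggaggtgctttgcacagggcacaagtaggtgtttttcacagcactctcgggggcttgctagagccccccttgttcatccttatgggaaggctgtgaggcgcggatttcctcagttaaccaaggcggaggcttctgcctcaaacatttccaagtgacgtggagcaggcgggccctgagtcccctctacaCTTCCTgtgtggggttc
AGGAAG occurred once upstream of Cd3d and at 2 places upstream of Cd3e, and 29.5% of the 32851 mouse windows of the same kind hold it. GGGCGG occurred once, upstream of Cd3g, and is held by 32.7% of all windows. The other motifs searched on both strands, TATAAA (held by 12.4% of windows), the RUNX core TGTGGT (14.0%) and the E box CAGCTG (13.0%), had no match in these 3 windows. Of the 21 windows available for T cell-restricted members, 12 held AGGAAG, 5 GGGCGG, 4 TGTGGT, 1 TATAAA and 1 CAGCTG. No motif overlapped another in the sequences shown.

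Most of the 38 genes were scarcely read in CTX and the remote tumor and were well read in both virus-treated tumors. In CTX 25 members had fewer than 20 reads, and 25 did in the remote tumor, against 2, Txk and Sit1, in each virus-treated tumor. The same counts over all genes are not given here. Higher and lower calls needed a 2-fold ratio of CPM whose 95% exact binomial interval, covering counting error only, excluded equality. In MV (L.i.t.) against CTX, 31 members were higher and 2 lower, where 18.1% of all genes compared were higher and 11.1% lower. In TRP-1MV against CTX, 31 members were again higher and 2 lower, beside 18.5% and 11.7% of all genes. The median log2 ratio of the 37 members was 5.65 in the first and 5.62 in the second comparison, against −0.05 and −0.07 over all genes. Both comparisons use the same CTX library. The CTX mice got no T cells, whereas the mice of both virus-treated tumors got TRP-1 T cells. Virus and T cell transfer therefore cannot be told apart in ratios to CTX, nor can reads of transferred and host T cells. In tissue RNA, more T cells and more RNA of these genes per cell cannot be told apart either.

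**Figure D1:**
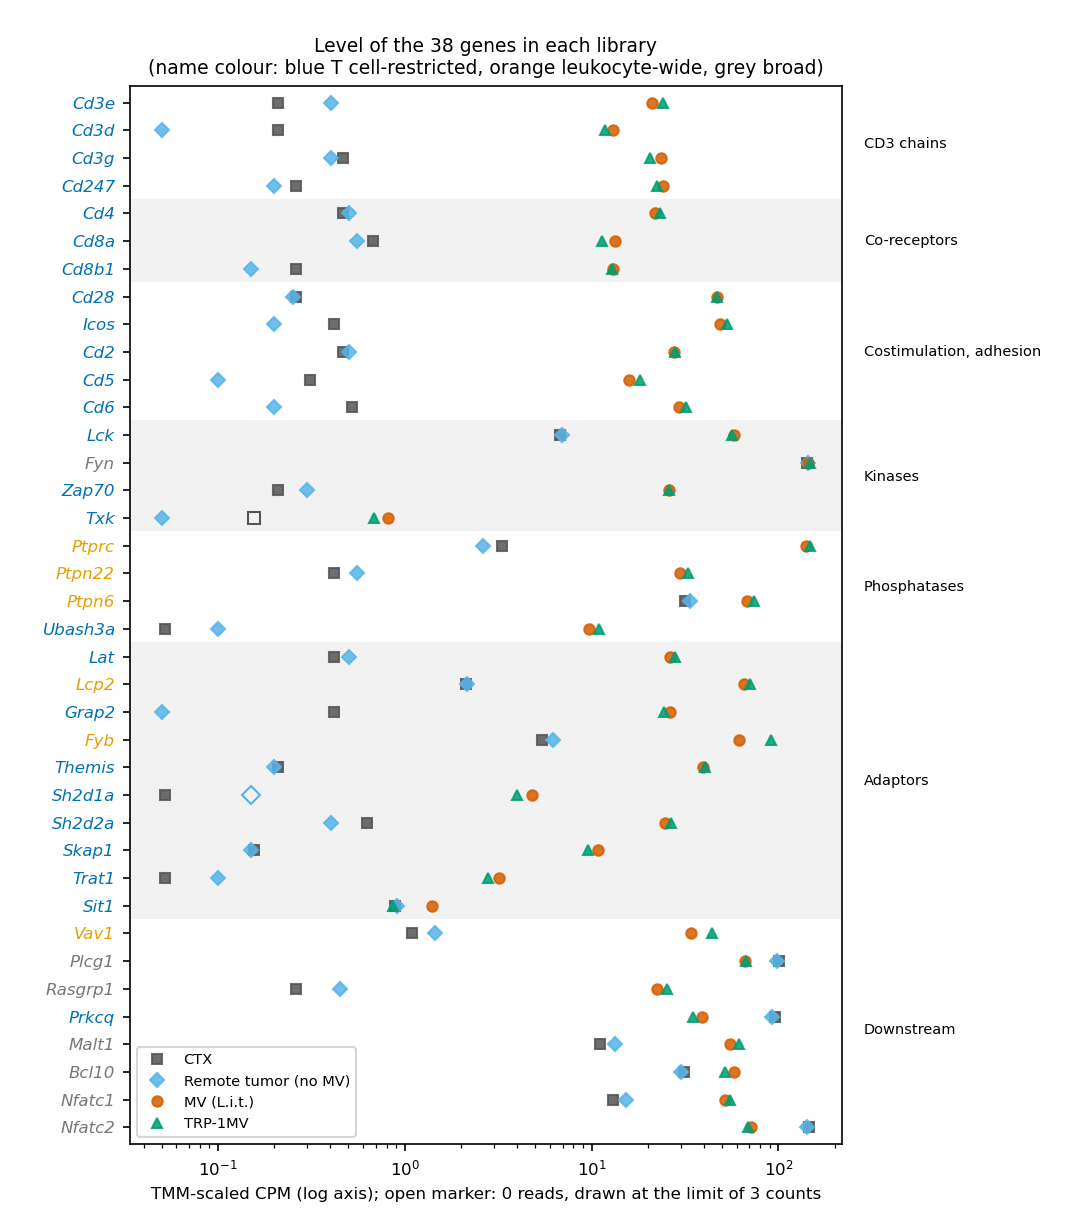
Level of each of the 38 genes (rows, grouped by role) in the 4 libraries, as TMM-scaled CPM on a log axis, 1 point per library; an open marker is a count of 0 drawn at the limit of 3 counts. The MV (L.i.t.) and TRP-1MV points lie far to the right of CTX and Remote tumor (no MV) for most names in blue, whereas Fyn, Plcg1, Prkcq, Nfatc2, Bcl10, Ptpn6 and Sit1 have points close together or in the opposite order.

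All 4 CD3 chains were called higher than CTX in the virus-treated tumors, beside 18.1% of all genes in MV (L.i.t.) and 18.5% in TRP-1MV. Cd3e, encoding the epsilon chain, stood at 0.209 CPM in CTX, 0.402 in the remote tumor, 21.0 in MV (L.i.t.) and 24.2 in TRP-1MV. Its level was 101-fold higher in MV (L.i.t.) than in CTX and 116-fold higher in TRP-1MV, from only 4 reads in CTX. Cd3d, encoding the delta chain, had 4 reads in CTX and 1 in the remote tumor against 176 in MV (L.i.t.) and 189 in TRP-1MV. Cd3g, the gamma chain gene, had 9, 8, 317 and 330 reads in that order. The 2 pairs of libraries did not overlap for any of these chains, but the share of all genes separating in this way is not given here. Each of these genes had 9 reads or fewer in CTX and in the remote tumor. Without the reads of the other libraries it would have missed the mean of 10, so the separation is partly built in and is description only. Cd247, which encodes the zeta chain and lies apart on chromosome 1, stood at 0.261, 0.201, 24.0 and 22.4 CPM, with log2 ratios to CTX of 6.53 [5.29, 8.16] in MV (L.i.t.) and 6.42 [5.19, 8.05] in TRP-1MV. Of its 4558 exon bases, 2918 are overlapped on the opposite strand by exons of Pou2f1, and the strand setting of the counting is not given in the sources used here. Pou2f1 had 511 reads in CTX, where Cd247 had 5.

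Both co-receptors were present in the virus-treated tumors. Cd4, which marks helper T cells and sits on MHC class II, stood at 0.469 CPM in CTX, 0.502 in the remote tumor, 21.8 in MV (L.i.t.) and 23.2 in TRP-1MV. Cd8a, encoding the alpha chain of CD8, stood at 0.678, 0.553, 13.3 and 11.4 CPM. Cd8b1, the beta chain gene, which conventional cytotoxic T cells express together with Cd8a, had 5, 3, 177 and 207 reads. All 3 were called higher in MV (L.i.t.) and in TRP-1MV than in CTX, beside 18.1% and 18.5% of all genes. Cd8a had the smallest ratio of the 3, 19.6-fold in MV (L.i.t.) and 16.9-fold in TRP-1MV. Cd4 made up 62.0% [57.5, 66.4] of the Cd4 plus Cd8a reads in MV (L.i.t.) and 67.0% [62.9, 70.9] in TRP-1MV (exact Clopper-Pearson intervals). These intervals overlap. In CTX the share was 40.9% [20.7, 63.6] of 22 reads and in the remote tumor 47.6% [25.7, 70.2] of 21, too few to place either beyond or within the values above. Per kb of exon, Cd4 stood at 1.65 times the level of Cd8a in MV (L.i.t.) and 2.04 times in TRP-1MV, and Cd8b1 at 2.08 and 2.38 times.

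All 5 costimulatory and adhesion receptors were called higher than CTX in both virus-treated tumors, beside 18.1% of all genes in MV (L.i.t.) and 18.5% in TRP-1MV. Cd28, the receptor for CD80 and CD86 that gives the costimulatory signal, had 5 reads in CTX, 5 in the remote tumor, 637 in MV (L.i.t.) and 752 in TRP-1MV. Its log2 ratio to CTX was 7.50 [6.27, 9.13] and 7.48 [6.26, 9.11]. Icos, a costimulatory receptor that appears on activated T cells, stood at 0.417, 0.201, 48.6 and 52.8 CPM. These 2 genes had the highest ratios of the 5 in both tumors. Cd2, an adhesion receptor of T and NK cells, stood at 0.469, 0.502, 27.5 and 27.9 CPM. Cd5 and Cd6 are neighbouring genes on chromosome 19 whose products temper receptor signals. Cd5 stood at 0.313, 0.100, 15.8 and 18.1 CPM. Cd6 stood at 0.521, 0.201, 29.5 and 32.0 CPM.

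The 4 kinases did not follow a single pattern. Zap70, whose product binds the phosphorylated CD3 motifs, had 4 reads in CTX, 6 in the remote tumor, 350 in MV (L.i.t.) and 418 in TRP-1MV, with a log2 ratio to CTX of 6.96 in each. Lck, which encodes the first kinase of the cascade, already had 130 reads in CTX and 139 in the remote tumor, at 6.78 and 6.98 CPM, and stood at 58.2 in MV (L.i.t.) and 56.4 in TRP-1MV. It was called higher, with log2 ratios of 3.10 [2.83, 3.38] and 3.06 [2.79, 3.33]. The summed reads of the CD3 genes Cd3e, Cd3d and Cd3g were 17 in CTX, so Lck had 7.65 reads per CD3 read there and 1.01 in MV (L.i.t.), a ratio of 0.132 [0.0741, 0.223]. In the remote tumor it had 8.18 reads per CD3 read. Fyn, a related kinase expressed in many tissues, stood at 142, 144, 144 and 148 CPM and was called in neither tumor, with a log2 ratio of 0.02 [−0.06, 0.11] in MV (L.i.t.). Txk, a Tec-family kinase of T cells, had 0, 1, 11 and 11 reads and fell below the minimum count.

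All 4 phosphatase-type regulators were called higher than CTX in MV (L.i.t.) and TRP-1MV, by very different amounts, beside 18.1% and 18.5% of all genes. Ptprc encodes CD45, the phosphatase that keeps Lck active and is found on all leukocytes. It stood at 3.34 CPM in CTX, 2.61 in the remote tumor, 141 in MV (L.i.t.) and 147 in TRP-1MV. Ptpn22, encoding a phosphatase that restrains Lck and the Zap70 kinase, stood at 0.417, 0.553, 29.6 and 33.0 CPM, a ratio to CTX near that of the CD3 chains although the gene is shared with other leukocytes. Ptpn6, encoding the inhibitory phosphatase of blood cells, had 604 reads in CTX and 666 in the remote tumor, and its levels of 31.5, 33.5, 67.8 and 73.6 CPM gave log2 ratios of only 1.11 [0.96, 1.26] and 1.23 [1.08, 1.37]. The lower bound for MV (L.i.t.) lay just under a 2-fold difference. Ubash3a, whose product dampens the receptor signal in T cells, had 1, 2, 131 and 177 reads, a log2 ratio to CTX of 7.54 [5.04, 12.85] and 7.72 [5.22, 13.03].

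Of the 10 adaptors, 9 were called higher than CTX in MV (L.i.t.) and 9 in TRP-1MV, Sit1 being the exception in each. Over all genes compared, the shares called higher were 18.1% and 18.5%. Lat, the membrane scaffold of the pathway, had 8 reads in CTX, 10 in the remote tumor, 356 in MV (L.i.t.) and 448 in TRP-1MV. Lcp2, the cytoplasmic scaffold that myeloid cells and platelets also use, stood at 2.14, 2.16, 65.6 and 70.9 CPM. Grap2, whose product bridges these scaffolds, had 8, 1, 356 and 395 reads. The 3 scaffold genes were thus low in both virus-free libraries and high in both others. Themis, an adaptor known for its part in thymocyte selection, had 4, 4, 537 and 652 reads and the highest log2 ratio of all members in MV (L.i.t.), at 7.57 [6.21, 9.45]. Fyb, which links the receptor to integrins and is also expressed in myeloid cells, had 104 reads in CTX and stood at 5.42, 6.23, 61.9 and 91.6 CPM, the only adaptor whose counting interval excluded equal levels in the virus-treated tumors. Sh2d2a, an Lck-binding adaptor, stood at 0.626, 0.402, 24.9 and 26.7 CPM. Skap1, a partner of the Fyb product, had 3, 3, 146 and 154 reads. Sh2d1a, encoding the adaptor of SLAM receptors, had 1, 0, 65 and 64 reads. These last 3 genes were low in both virus-free libraries and higher in both others, which again is description only. Trat1, encoding a receptor-associated transmembrane adaptor, had 1, 2, 43 and 45 reads. Sit1, another transmembrane adaptor of lymphocytes, had 17 reads in CTX, 18 in the remote tumor, 19 in MV (L.i.t.) and 14 in TRP-1MV. Its log2 ratios of 0.67 [−0.36, 1.70] and −0.03 [−1.16, 1.08] did not pass the rule and leave room for a difference of 2-fold either way in TRP-1MV.

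Downstream of the adaptors the members parted in direction. Vav1, the exchange factor of blood cells that acts on the actin skeleton, stood at 1.10 CPM in CTX, 1.46 in the remote tumor, 34.1 in MV (L.i.t.) and 44.2 in TRP-1MV. Rasgrp1, encoding the exchange factor that turns on Ras, had 5, 9, 301 and 406 reads. Although listed among broadly expressed genes, its log2 ratios of 6.42 and 6.60 lay among those of the CD3 chains. Malt1, encoding the protease of the complex that leads to NF-kB, stood at 11.1, 13.3, 54.9 and 61.7 CPM and was called higher, 4.94-fold in MV (L.i.t.) and 5.56-fold in TRP-1MV. Its partner Bcl10 stood at 31.2, 30.2, 57.9 and 51.8 CPM, 1.85-fold and 1.66-fold higher, below the 2-fold rule. Nfatc1, an NFAT factor that activated lymphocytes induce, stood at 13.0, 15.3, 51.5 and 55.1 CPM and was called higher. Nfatc2, the NFAT factor found in resting T cells and in many other tissues, stood at 145, 143, 71.3 and 68.8 CPM and was called lower, with log2 ratios of −1.03 [−1.14, −0.92] and −1.08 [−1.18, −0.98]. The 2 NFAT genes thus differed in opposite directions.

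Prkcq, encoding protein kinase C theta, was the other member called lower. It was listed as T cell-restricted, and muscle and platelets are also known to express it. It stood at 95.5 CPM in CTX, 92.9 in the remote tumor, 39.0 in MV (L.i.t.) and 35.1 in TRP-1MV, with log2 ratios of −1.29 [−1.44, −1.15] and −1.45 [−1.58, −1.31]. With 1832 reads beside 17 CD3 reads in CTX, it was read 108 times for each CD3 read there and 0.678 times in MV (L.i.t.). Plcg1, the phospholipase gene expressed in most cells, stood at 101, 98.8, 66.4 and 67.2 CPM, with log2 ratios of −0.60 and −0.59 that did not pass. The melanocyte markers moved with these genes: all 7 were called lower in both virus-treated tumors, from Mitf, the least changed, to Mlana, the most changed, with a summed level of 16272 CPM in CTX, 16494 in the remote tumor, 4059 in MV (L.i.t.) and 3772 in TRP-1MV. The skeletal muscle markers Acta1, Ckm, Myh4, Myl1, Tnnt3 and Ttn summed to between 10.7 and 14.1 CPM in all 4 libraries, with none at 0 and Ttn highest in ratio. The part of either in the values of Prkcq, Nfatc2 and Plcg1 was not tested. Direction was kept under every scaling tried, whereas the calls of Prkcq and Nfatc2 were not: scaled on housekeeping genes, Prkcq stood at −0.81 in MV (L.i.t.) and −0.99 in TRP-1MV, and Nfatc2 at −0.54 and −0.63.

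**Figure D2:**
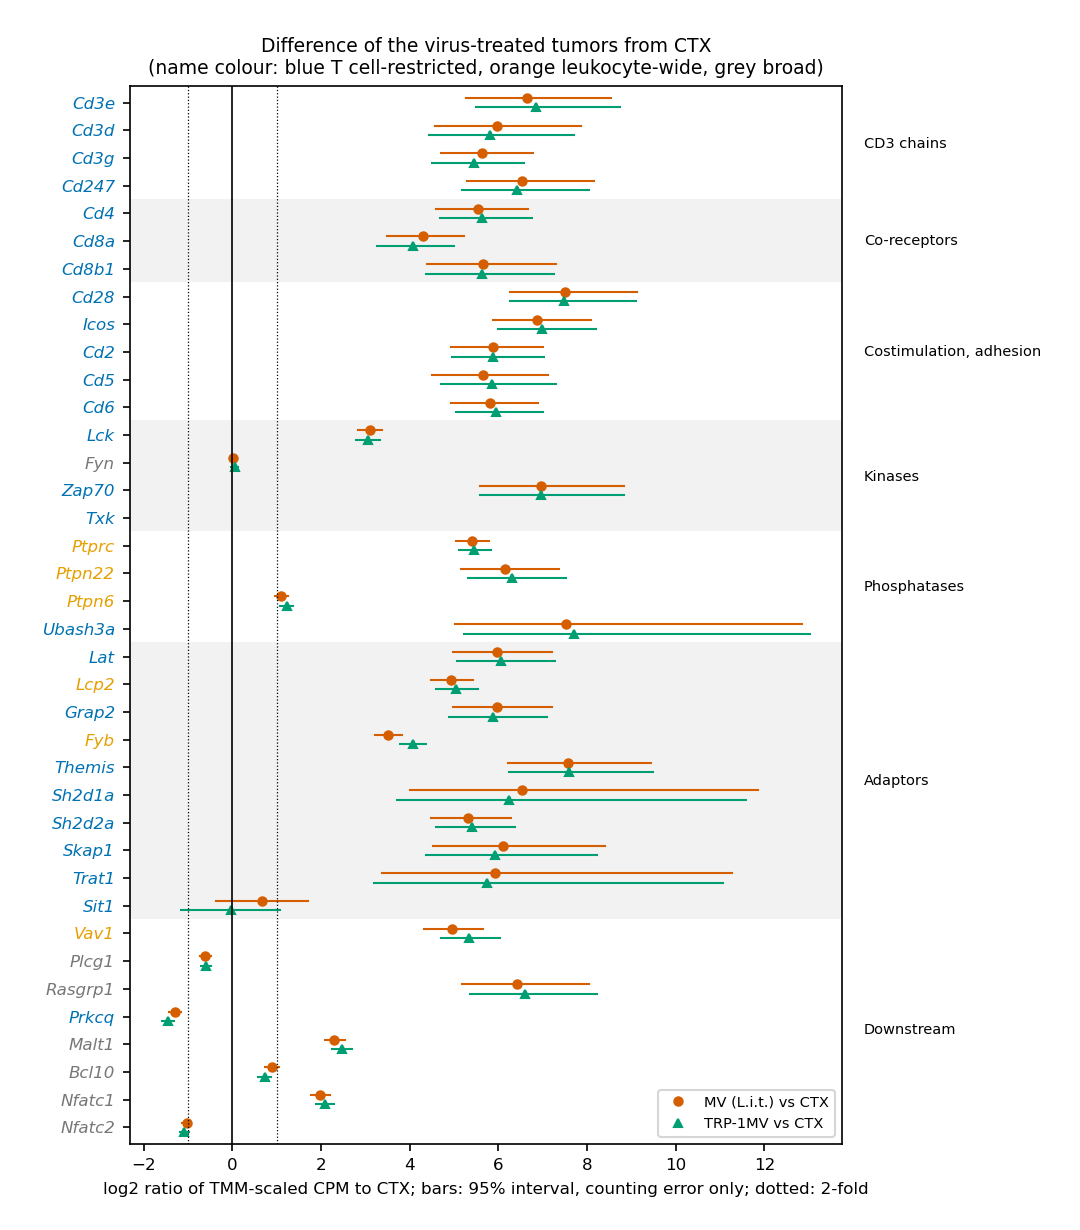
Log2 ratio of TMM-scaled CPM to CTX for each member past the minimum count (Txk has none), for MV (L.i.t.) in circles and TRP-1MV in triangles, with 95% exact binomial intervals that cover counting error only. Most members lie above a log2 ratio of 4 with wide intervals set by few CTX reads, the intervals of Fyn and Sit1 hold 0 in both tumors, and Plcg1, Prkcq and Nfatc2 lie below 0.

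By class, the median log2 ratio to CTX was higher for T cell-restricted members than for shared ones. The classes were not filtered alike: of the members admitted by their reads in the virus-treated tumors alone, 19 were restricted, out of 24 restricted members past it, and 2 were shared, out of 13. The values below are therefore a description of these members and support no difference between the classes. Of the 24 restricted members past the minimum count, 22 were called higher in MV (L.i.t.) and 22 in TRP-1MV against CTX, with Prkcq lower and Sit1 not called in each. Over all genes compared, 18.1% were higher in MV (L.i.t.) and 18.5% in TRP-1MV. The median log2 ratio was 5.95 and 5.88 for restricted members and 2.31 and 2.47 for the 13 shared members, of which 9 were higher and Nfatc2 lower in each tumor. The difference of medians, 3.64 in MV (L.i.t.) and 3.41 in TRP-1MV, does not depend on how the libraries were scaled. Among shared members the 6 leukocyte-wide genes were all called higher, with medians of 4.95 and 5.19, and the 7 broad genes had medians of 0.89 and 0.73, from Nfatc2 to Rasgrp1. The classes overlapped: Rasgrp1 and Ptpn22 lay among restricted members, Sit1 and Lck among shared ones, and Prkcq below every shared member. The class names come from textbook knowledge, and the reads of Prkcq and Lck in CTX, where the CD3 chains were near 0, go against calling those 2 genes restricted in these tumors. Sit1, also listed as restricted, did not follow the CD3 chains, with 17 reads in CTX, 19 in MV (L.i.t.) and 14 in TRP-1MV. Rasgrp1, listed as broad, did follow them, with 5, 301 and 406 reads in that order. Ptpn6, listed as leukocyte-wide, stood at 31.5 CPM in CTX, where Ptprc, found on all leukocytes, stood at 3.34. Its level there thus did not follow Ptprc and goes against its class name in these tumors. The 25 restricted members summed to 109.9 CPM in CTX, 106 in the remote tumor, 569 in MV (L.i.t.) and 569 in TRP-1MV, with Prkcq and Lck holding most of the level in the first 2. The broad members summed to 444, 445, 468 and 478 CPM in the same order.

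**Figure D3:**
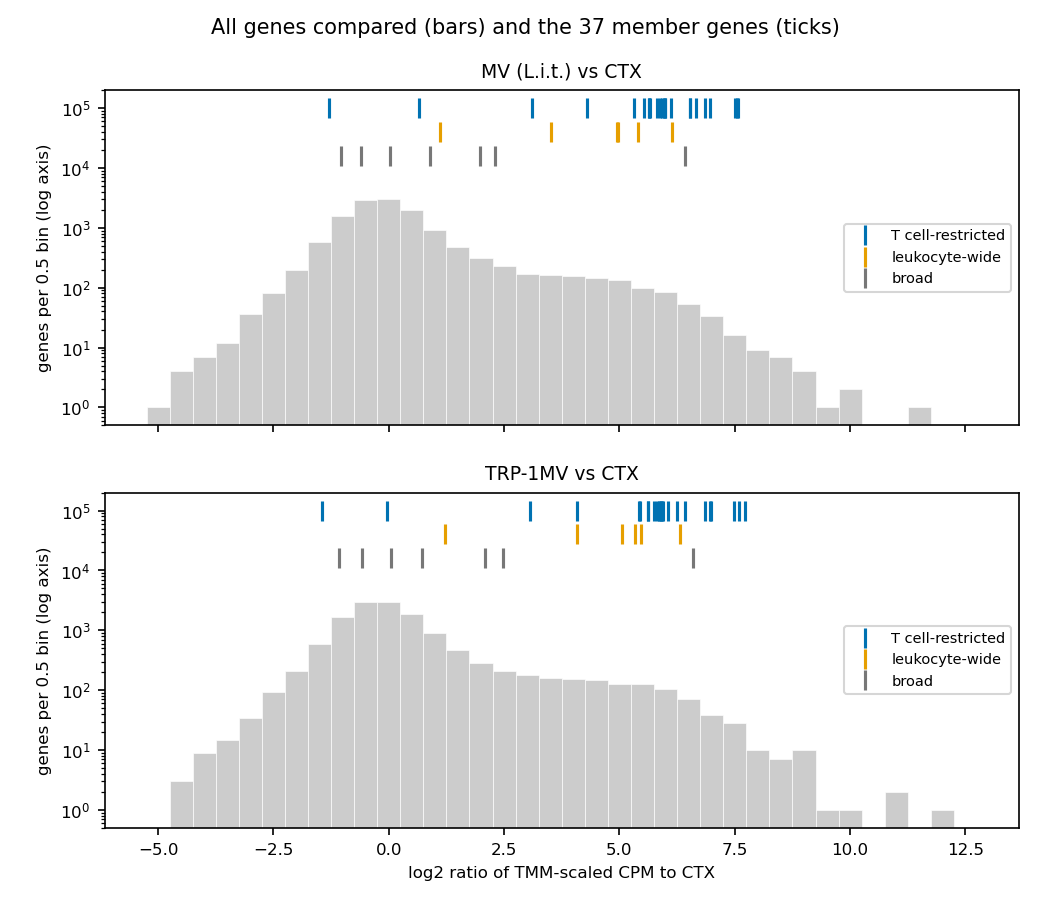
Number of genes in bins of the log2 ratio to CTX (bars, log axis) for all 13357 genes compared, with the 37 members past the minimum count as ticks coloured by class, for MV (L.i.t.) above and TRP-1MV below. Blue ticks gather between about 5 and 8 on the thin right shoulder of the bars, apart from Prkcq, Sit1, Lck and Cd8a, and grey ticks mostly lie within the main peak.

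Many but not all markers of other cells, some of which use these genes, were also higher in the virus-treated tumors. The 7 B cell markers summed to 1.30 CPM in CTX, 1.11 in the remote tumor, 65.9 in MV (L.i.t.) and 68.6 in TRP-1MV, with Ms4a1 and Fcer2a among those at 0 in CTX and Cd79b at 0 in the remote tumor. Among them Ms4a1 had the highest ratio to CTX and Cd22 the lowest. The 7 macrophage and monocyte markers, all called higher in both, summed to 50.9, 63.4, 845 and 1251 CPM with none at 0, Itgam having the highest ratio. Those cells express the leukocyte-wide members, and their part in these values was not tested. Defining NK cell genes were at or near 0 everywhere: Klra8 and Klra4 had 0 reads in every library, Ncr1 between 1 and 4, and Klrb1c 2 or 3. The NK list as a whole summed to 2.19, 2.16, 13.3 and 14.2 CPM, and the highest log2 ratio to CTX was that of Gzma, at 5.27 in MV (L.i.t.), followed by Eomes, at 1.48. T cells express both. Of the 4 gamma-delta T cell markers found in the tables, Il17a had 0 reads in every library. Blk, which B cells also express, had 0 reads in CTX and the remote tumor, 38 in MV (L.i.t.) and 43 in TRP-1MV. Mast cell markers summed to 2, 3, 29 and 42 reads, mainly Cpa3. The neutrophil list summed to 0.782, 1.41, 157 and 250 CPM, most of it Mmp8, with Csf3r lowest in ratio and Ly6g at 3 reads or fewer in every library. The platelet list summed to 3.70, 3.52, 90.6 and 133 CPM, led by Pf4 and Ppbp, and its other genes went both ways. Itga2b, at 30, 26, 127 and 168 reads, was called higher than CTX in both virus-treated tumors, and Gp6 had 0, 0, 2 and 6. Gp9 and Gp1bb had lower levels in those tumors. Gp9 had 15 reads in CTX, 21 in the remote tumor, 5 in MV (L.i.t.) and 0 in TRP-1MV, and Gp1bb had 8, 7, 3 and 3. Against CTX, Gp9 was called lower in TRP-1MV, at a log2 ratio of −2.07 with the 0 replaced by 3 counts. It was not called in MV (L.i.t.), at −1.08, and Gp1bb was below the minimum count. Dendritic cell markers, which include cells that can express Cd8a and Cd4, summed to 8.81, 7.18, 18.1 and 15.0 CPM, with Flt3 above Zbtb46 in ratio and Siglech at 0 in MV (L.i.t.).

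A further 63 genes of the same pathway that are not on the list were followed, 61 of them past the minimum count. In MV (L.i.t.) against CTX, 26 were higher and 1 lower, with a median log2 ratio of 0.92, beside 18.1% of all genes higher and 11.1% lower. In TRP-1MV 31 were higher and 1 lower, with a median of 1.10, beside 18.5% and 11.7% of all genes. Cd96, a lymphocyte adhesion receptor, had the highest ratio in both, at 6.75 and 6.82 from 1 read in CTX. Slamf6, a SLAM receptor that signals through Sh2d1a, stood at 6.36 and 6.34. Both genes lay among the T cell-restricted members. Itpr1, a calcium channel gene of the endoplasmic reticulum, was the gene called lower, at −1.33 and −1.24. The adaptor Nck2 and the phosphatase-like Ubash3b had the next lowest values, −0.77 for each in MV (L.i.t.) and −0.60 and −0.68 in TRP-1MV, and did not pass the rule.

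In the remote tumor, whose mice had received TRP-1 T cells, no member was called higher than in CTX, and 1 was called lower, where 0.468% of all genes were higher and 0.253% lower. Cd3e, Cd3d and Cd3g together stood at 0.854 CPM [0.498, 1.37] in the remote tumor and 0.886 [0.516, 1.42] in CTX, by exact Poisson intervals. The summed level of the 13 members least known outside T cells was 3.17 CPM [2.43, 4.05] and 3.70 [2.89, 4.67]. These intervals overlap. Sit1, which did not follow the CD3 chains, gave 18 of the 63 reads in the remote tumor and 17 of the 71 in CTX. The member called lower was Grap2, with 1 read against 8, a log2 ratio of −3.05 [−8.53, −0.15] that is set by very few reads and was not called in 3 of the alternatives tried. Single genes in that range of counts could differ severalfold without being seen: Cd3e at 8 reads against 4 had an interval of −0.95 to 3.13. The well-read members were tighter. Fyn stood at 0.03 [−0.05, 0.10], Prkcq at −0.04 [−0.13, 0.05] and Nfatc2 at −0.02 [−0.10, 0.05], so that a 2-fold difference lay outside their counting intervals. Malt1 stood at 0.26 [−0.00, 0.53] and Nfatc1 at 0.23 [−0.01, 0.48], with intervals that just held 0. Of the 57 other pathway genes with a ratio, 0 were higher and Tagap was lower, at 8 reads against 19. Tec stood at −0.57, and the highest values were 0.95 for Arhgap15, 0.46 for Rhoh and 0.28 for Sh3bp2, none of which passed.

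Set against the remote tumor instead of CTX, which for MV (L.i.t.) is the other flank of the same treatment group, the picture was similar. In MV (L.i.t.) 31 members were higher and 2 lower, where 18.6% of all genes were higher and 11.7% lower. In TRP-1MV 31 were higher and 2 lower, beside 18.8% and 12.1%. Cd3e had a log2 ratio of 5.71 [4.71, 6.93] in MV (L.i.t.), and Icos one of 7.92 [6.56, 9.80]. The difference between the medians of restricted and shared members was 4.01 in MV (L.i.t.) and 3.81 in TRP-1MV. These values share the MV (L.i.t.) and TRP-1MV libraries with the comparisons above.

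The 2 ways of giving virus left no member past the rule when set against each other. In TRP-1MV against MV (L.i.t.), 0 members were higher and 0 lower, where 0.562% of all genes were higher and 0.217% lower. The median log2 ratio of the 37 members was 0.03, and their values ran from −0.69 for Sit1, at 14 reads against 19, to 0.57 for Fyb. The interval lay above 0 for Fyb at 0.57 [0.44, 0.69], Vav1 at 0.37 [0.20, 0.55] and Malt1 at 0.17 [0.03, 0.31], and below 0 for Bcl10 at −0.16 [−0.30, −0.02]. The share of all genes with such intervals is not given here, so these values are description only. The CD3 genes differed little and in both directions, with Cd3e at 0.20 [−0.02, 0.43] and Cd3g at −0.20 [−0.42, 0.03]. Cd3e, Cd3d and Cd3g summed to 56.4 CPM in TRP-1MV and 57.5 in MV (L.i.t.). The restricted members had a median of −0.02 and the leukocyte-wide members one of 0.14. In the latter class the intervals of Ptprc, Ptpn22, Ptpn6 and Lcp2 held 0, and Fyb and Vav1 lay highest. The macrophage and monocyte markers had a summed level of 1251 against 845 CPM, and the median log2 ratio of the 7 was 0.58. The adaptor Themis2, known from myeloid and B cells, and the kinase Syk were highest among the other pathway genes, at 0.58 and 0.50, followed by Tyrobp, a myeloid adaptor, at 0.46, and the lowest were Rasa2 at −0.22, Nck1 at −0.18 and Traf6 at −0.14. The part of those cells in the Fyb and Vav1 values was not tested.

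Members were also set against the CD3 chains of their own library, which removes the scaling. Each member's reads were divided by the summed reads of Cd3e, Cd3d and Cd3g, leaving out the gene itself, and the ratio between libraries was called at 1.5-fold with an exact 95% interval excluding 1. Against CTX, 0 members were higher per CD3 read in either virus-treated tumor, and 14 were lower in MV (L.i.t.) and 13 in TRP-1MV. Over all genes with a CTX read, 96.2% were lower and 0.159% higher in MV (L.i.t.), and 95.8% and 0.272% in TRP-1MV, since any gene that did not keep pace with the CD3 reads is lower on this scale. The 13 in TRP-1MV were Cd8a, Lck, Fyn, Ptpn6, Lcp2, Fyb, Sit1, Plcg1, Prkcq, Malt1, Bcl10, Nfatc1 and Nfatc2, and those in MV (L.i.t.) were these and Vav1. All these ratios rest on the 17 CD3 reads of CTX. Of 38 members, 1 was called higher in TRP-1MV than in MV (L.i.t.) and 0 lower, beside 2.84% and 0.442% of all genes, so the share of members is near that of all genes. Fyb was that gene, with 1.62 reads per CD3 read against 1.08, a ratio of 1.51 [1.33, 1.72] that lies at the threshold and was not called with Cd3e alone as the divisor. Vav1, at 1.32 [1.13, 1.54], and Cd3e against the other two chains, at 1.30 [1.06, 1.59], had intervals above 1 but smaller ratios. The co-receptors and costimulatory receptors stood close to 1, with Cd4 at 1.09 [0.90, 1.31], Cd8a at 0.87 [0.69, 1.11], Cd8b1 at 1.00 [0.80, 1.26], Cd28 at 1.01 [0.87, 1.17] and Icos at 1.11 [0.96, 1.28]. Lck stood at 0.99 [0.86, 1.13] and Zap70 at 1.02 [0.86, 1.22]. For these 7 genes a difference of 1.5-fold per CD3 read lay outside the counting interval.

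**Figure D4:**
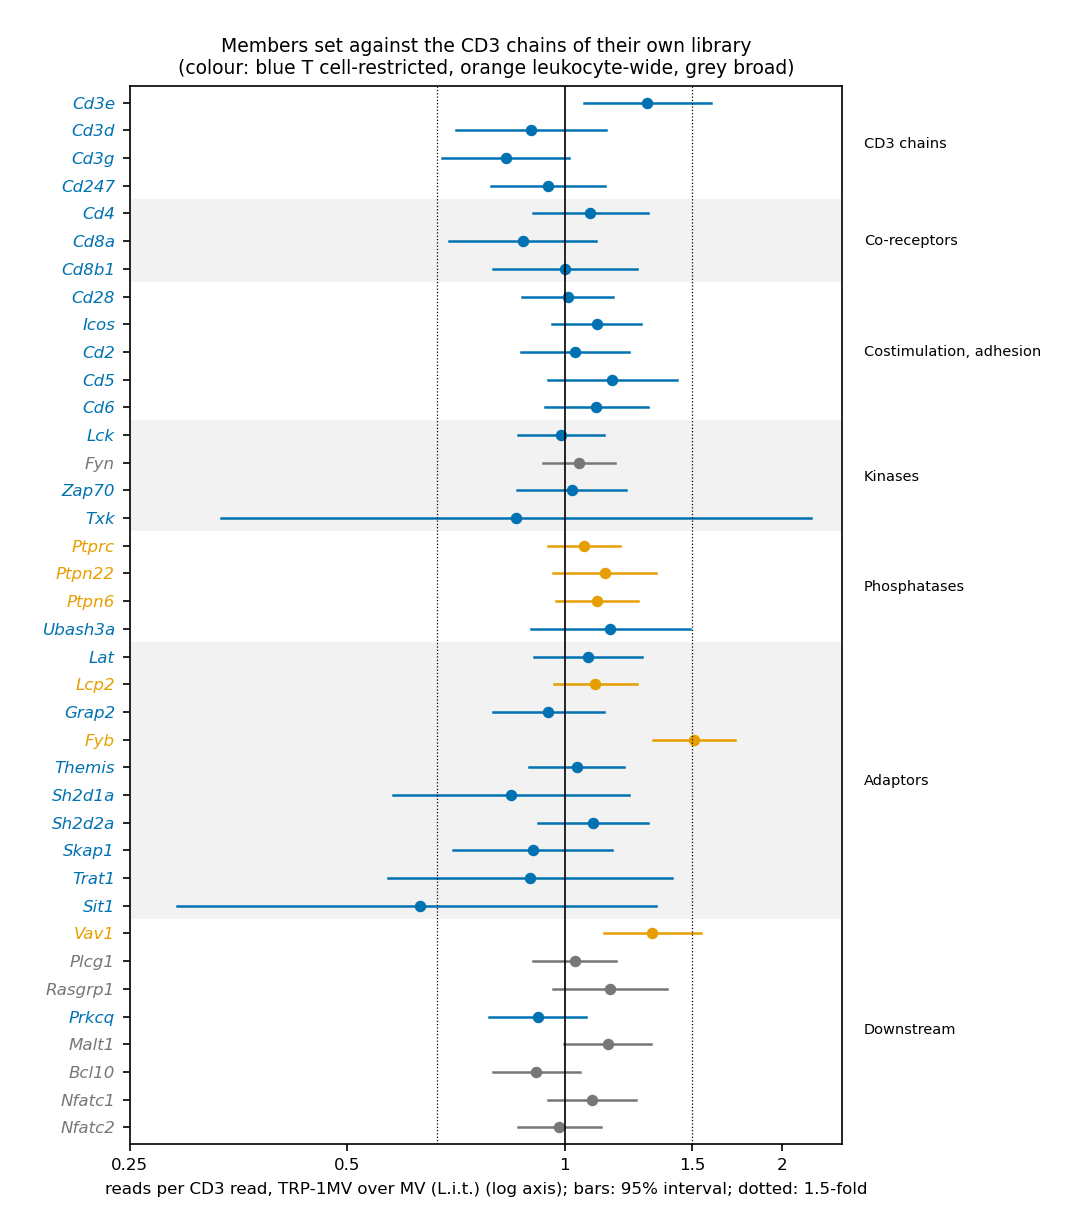
Reads of each member per CD3 read, TRP-1MV over MV (L.i.t.) on a log axis, with exact 95% intervals and dotted lines at the 1.5-fold threshold; colours give the class. The point of Fyb reaches the upper line, that of Sit1 lies under the lower line with an interval holding 1, and Sit1 and Txk have the widest intervals.

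Levels were compared between genes as CPM per kb of exon, with the exon lengths of the GENCODE M21 coding transcripts. In CTX the members with the highest level per kb were Fyn at 36.9, Prkcq at 26.7, Plcg1 at 17.9 and Nfatc2 at 17.4, and 10 members reached 1. All 4 CD3 chains were under 0.5 there. In MV (L.i.t.) 36 members reached 1, led by Fyn at 37.5, Bcl10 at 29.7, Ptprc at 27.6, Ptpn6 at 26.0 and Lck at 25.1, with Cd2 at 23.9 and Cd3g at 22.9 close behind. Cd3e stood at 14.4, Cd3d at 8.05 and Cd247 at 5.28 in that library. The value of Cd247 also depends on how reads were counted in the 2918 of its 4558 exon bases overlapped by Pou2f1, which is not stated. In TRP-1MV 35 members reached 1 and Fyb, at 34.3, stood next to Fyn, at 38.5. How many of all genes reached 1 is not given here, so these counts describe the members only. Txk and Trat1 had the lowest levels in both virus-treated tumors, under 0.7. The order among neighbours rests on annotated lengths and single libraries, so close values are not shown to differ.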

How the data were processed

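Gene expression was analysed in 4 libraries, 1 per group, grouped by sample title. The values deposited by the authors are raw counts of reads for each gene symbol, without normalization. Per the submitters' processing notes, HISAT2, featureCounts and build mm10 were used; no version, annotation, strand or multi-mapping setting is stated in the sources used here. Reads of overlapping genes can therefore be misassigned, and 10 of the 38 members share exon bases with another gene.

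TMM factors from all 4 libraries together (edgeR 4.0.16, R 4.3.3) turned these counts into CPM. Ratios have 95% exact conditional binomial intervals (scipy 1.17.1, pandas 2.3.3, numpy 2.4.6, Python 3.11.15), with zeros replaced by 3 counts in that library. Pairs in which neither library exceeded 3 reads got no ratio. Calls needed a mean count of 10 or more, a 2-fold ratio and an interval excluding 1. With 1 library per group there is no p-value. The calculation was tested on simulated counts. Exon lengths are unions over coding transcripts of the GENCODE M21 basic set. Figures used matplotlib 3.10.9.

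All 6 pairs of libraries were compared. The rule for naming genes covered all 38 members, the 3 highest and 3 lowest other pathway genes in each comparison with CTX and in TRP-1MV against MV (L.i.t.), Tyrp1, and the highest and lowest gene of each marker list; some of these genes are not reported here. The members, classes and lists were chosen with earlier results of these data known. Alternatives covered scaling (size factors of DESeq2 1.42.0, totals, upper quartile, housekeeping genes), TMM without ribosomal and structural RNA genes, other minimum counts, stricter calls, thinning, means, other classes and other CD3 divisors. TMM and minimum counts over the compared pair alone were added after seeing the data.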

Additional observations from a re-analysis of the deposited data

How the results depend on the processing

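Counting error is the only error these libraries allow, and differences between animals or preparations remain unmeasured. No paired analysis was possible because replicates are lacking, with 1 library per group. Counts of members called higher stayed within 1.5 times the main count under each alternative, and no called value changed sign. Against TMM, total counts added 0.24 and housekeeping scaling 0.48 to each log2 ratio of MV (L.i.t.) to CTX, and 0.24 and 0.45 in TRP-1MV.

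The 2 members called lower than CTX in MV (L.i.t.) became 1 with total counts, 1 with upper-quartile factors, 1 with an interval excluding a ratio of 2, and 0 with housekeeping scaling or a 4-fold rule. In TRP-1MV against CTX they became 1 with total counts, 1 with an interval excluding a ratio of 2, and 0 with housekeeping scaling or a 4-fold rule. Against the remote tumor, the 2 lower in MV (L.i.t.) became 1 with DESeq2 factors, upper-quartile factors, an interval excluding 2 or thinning, and 0 with total counts, housekeeping scaling or a 4-fold rule. The 2 lower in TRP-1MV became 1 with total counts, upper-quartile factors or an interval excluding 2, and 0 with housekeeping scaling or a 4-fold rule. The 1 member lower in the remote tumor than in CTX became 0 with an interval excluding 2, with thinning and with only the 2 libraries compared.

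Of the other pathway genes, the 1 called lower became 0 with housekeeping scaling or a 4-fold rule in each virus-treated tumor against CTX or the remote tumor, and 0 with total counts except in MV (L.i.t.) against CTX. In TRP-1MV against the remote tumor it also became 0 with an interval excluding 2 or thinning. The 1 lower in the remote tumor than in CTX became 0 with a 4-fold rule, an interval excluding 2 or thinning. None was lower in TRP-1MV than in MV (L.i.t.), against 1 with no minimum count and 1 with only the 2 libraries compared. The difference of class medians in TRP-1MV against CTX, 3.41, became 5.15 with broad members alone as the shared class. Per CD3 read, the 1 member called higher in TRP-1MV became 0 with Cd3e alone as divisor. The cause of these changes was not tested beyond what each alternative alters.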
